A study of Drosophila melanogaster with 3 samples.

Results

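Chromatin immunoprecipitation of Vrille gave 30000 entries in the pooled list of all replicates. Of these, 2784 (9.28%) lay at promoters of genes without a peak of the authors' optimal list there. They were chosen by 3 criteria and are called members below. A member is absent from the optimal list, the 9264 entries kept by the authors at their threshold on the IDR (irreproducible discovery rate, a measure of how well replicates rank the same peaks). Its summit is no farther than 1 kb from a start site of a protein-coding gene. That gene has no optimal summit in the same range of any of its start sites. The optimal entries are also the 9264 of highest pooled signal, so every member is an entry of lower pooled signal. Absence from the optimal list does not show that a single member is irreproducible. The members are 13.4% of the 20736 entries below the threshold and belong to 2045 genes. For 212 members (7.61%) a different gene, one with an optimal promoter summit, also had a start site in the 1 kb range, and for 105 the nearest start site was that of such a gene. All members are compared with the 4552 optimal entries whose summits also lie within 1 kb of a coding start site, called optimal promoter entries.

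The samples were 3 biological replicates of 1 group, whole white prepupae with males and females pooled, of unknown age. The flies were the strain vri-GFP, a transgenic line in which GFP is fused to the C terminus of vri, and the precipitation was against GFP. All 3 replicates come from this one line, and the sources used here do not give the cells or the level at which the fusion is made. In whole animals, strong binding in few cells and weak binding in many cells cannot be told apart. The lists hold a signal value per entry but no read counts, so the depth is unknown. Replicate 2 had a lower signal scale than the others, with a median of 46.8 at optimal entries, beside 81.4 in replicate 1 and 78.5 in replicate 3. Signal is therefore given as relative signal, the replicate's value divided by that replicate's median over all optimal entries.

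Vrille is a bZIP transcription factor and a repressor. In the circadian clock, CLOCK and CYCLE activate vri, and Vrille in turn represses Clk through boxes that it shares with the activator PDP1. The gene is also induced by the steroid hormone ecdysone, whose pulse at the end of larval life starts metamorphosis at the white prepupal stage. A peak list that serves as input to the IDR is kept long on purpose, so that it holds background as well as binding.

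The sequences that bear on what the members are come first. The box bound by Vrille and PDP1 (VP box, TTATGTAA or TTACGTAA on either strand) lay within 50 bp of the summit in 29 members. The windows of the 10 with the highest pooled signal are shown, other than those of Mal-A1 and E(Pc), on the forward strand of assembly dm6 with the box in capitals. They cover the summit and 50 bp to each side or, where that window touches an exon, 30 bp around the box. The intron windows of CG5567, ko, kar and Prx4 lie downstream of a start site, the CG12116 window lies in an intron upstream of its start site, and the slf window lies outside genes.
slf, chr2L:4802850-4802950: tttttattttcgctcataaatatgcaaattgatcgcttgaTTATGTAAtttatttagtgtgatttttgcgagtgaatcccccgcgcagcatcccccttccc
CG12116, chrX:8469737-8469837: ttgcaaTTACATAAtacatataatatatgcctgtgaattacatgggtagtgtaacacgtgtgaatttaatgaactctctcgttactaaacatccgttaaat
CG5567, chr3L:17843112-17843212: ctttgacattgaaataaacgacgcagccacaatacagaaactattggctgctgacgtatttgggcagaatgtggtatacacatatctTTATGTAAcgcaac
ko, chr3L:21099182-21099282: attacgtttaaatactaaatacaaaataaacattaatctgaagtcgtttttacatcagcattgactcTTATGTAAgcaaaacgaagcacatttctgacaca
kar, chr3R:12689094-12689194: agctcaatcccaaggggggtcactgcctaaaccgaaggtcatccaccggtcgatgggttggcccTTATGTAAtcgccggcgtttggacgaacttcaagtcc
Prx4, chr3L:3042826-3042926: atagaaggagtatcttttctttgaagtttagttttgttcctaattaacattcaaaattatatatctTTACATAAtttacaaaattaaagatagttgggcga
CG32091, chr3L:11631561-11631590: tttgaaacgcaTTACATAAgccaagccaat
CG9922, chr3R:14036089-14036118: tttgaagttttTTATGTAAtttcgaatttg

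A second kind of sequence marks promoters of broadly expressed genes. The DREF site (TATCGATA) is bound by the replication-related factor DREF, and the core of Ohler motif 1 (GGTCACACT) is bound by M1BP. The 3 members of highest signal with each are shown in the same way, 30 bp around the site, except for muc, whose window has 50 bp to each side of the summit and lies outside genes.
CkIIalpha-i3, DREF site, chr3L:710368-710397: aatttcgaagtTATCGATAaagtttgcttc
Rrp46, DREF site, chr3R:10412901-10412930: ccttcgctgtcTATCGATAgccagcgatag
GstZ1, DREF site, chr3R:9456574-9456603: ctgtgccgaacTATCGATAggttccctaca
Bmcp, motif 1 core, chr3L:11720850-11720879: cccgctgttaAGTGTGACCaaaatcaattg
muc, motif 1 core, chr2L:7426604-7426704: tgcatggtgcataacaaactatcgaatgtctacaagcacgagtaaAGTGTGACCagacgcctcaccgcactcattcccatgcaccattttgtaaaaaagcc
gdl, motif 1 core, chr3L:15509562-15509591: aactgattgtGGTCACACTgctgctgctgc

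The Vrille box was rarer at the members than at the optimal promoter entries. It was present within 50 bp of 29 of 2784 member summits (1.04%, exact binomial 95% interval 0.699 to 1.49%) and of 94 of 4552 optimal promoter summits (2.07%, 1.67 to 2.52%). The odds ratio was 0.499 (Fisher's exact test over 13 motifs, two-sided, Benjamini-Hochberg adjusted p = 0.00310). With only 25 bp searched to each side, the odds ratio was 0.611 and the adjusted p was 0.327. Of the 14798 entries below the threshold and beyond 1 kb of any coding start site, 1.35% held the box, a value given without a test. Against their own surroundings the members' boxes did not pass the test. The box was present in 29 windows at summits and in 18 windows of the same length centred 400 bp to the right, a ratio of 1.61 (exact McNemar test, p = 0.144, adjusted p = 0.267). A p above the threshold does not show that summits and flanks hold equal numbers. At the optimal promoter entries the same ratio was 2.41, and the difference between the ratios was not tested.

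Related sites showed the same order. The looser box, which adds TTATATAA to the words above, was at 1.83% of member summits, against 2.86% of optimal promoter summits (odds ratio 0.635, Fisher's exact test, adjusted p = 0.0169). The site of C/EBP-type bZIP factors (TTGCGCAA, TTGCGTAA or TTACGTAA on either strand) was at 0.790%, against 1.54% (odds ratio 0.510, Fisher's exact test, adjusted p = 0.0156). It shares the word TTACGTAA with the VP box, and 6 members were counted under both. Entries below the threshold and beyond 1 kb of any coding start site held the looser box in 2.34% and the C/EBP site in 1.07%. Restricting the members to those found in replicates 1 and 2 gave adjusted p values of 0.0551 for the looser box and 0.0623 for the C/EBP site. With the highest member of each gene only, these were 0.142 and 0.188, and with 25 bp searched the looser box had 0.359. In the members at or above the median pooled signal the looser box had an odds ratio of 0.698 and an adjusted p of 0.235. The cyclic AMP response element (TGACGTCA) was at 8 member summits (0.287%), against 24 optimal promoter summits (0.527%), which did not pass (Fisher's exact test, adjusted p = 0.239).

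Most members with a VP box or C/EBP site, like most members in general, had their summit farther than 100 bp from a start site. Of the 29 members with a VP box, 6 had their summit within 100 bp of a start site, and of the 22 with a C/EBP site, 1 did. Of all 2784 members, 864 did (31.0%). Among optimal promoter entries, 16 of 94 with a VP box and 21 of 70 with a C/EBP site did, against 1681 of all 4552. The low count with a VP box was therefore not particular to the members. VP boxes were in 1.20% of the 1920 members farther than 100 bp from a start site and in 0.694% of the 864 closer ones. The same box is in 0.492% of windows of this length centred on the 12405 distinct start sites of genes without an optimal promoter summit. All values by distance are descriptions, with no test.

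Members with a VP box are listed here by pooled signal, with the relative signal in replicates 1, 2 and 3. CG32091 had 0.375, 0.985 and 0.305, and its summit lay 202 bp downstream of its start site. slf, which encodes the cuticle lectin Schlaff, had 0.591, 0.463 and 0.446 at 977 bp upstream, with the box 6 bp from the summit. Mal-A1, a maltase gene, had 0.592, 0.327 and 0.429 at 127 bp upstream. Only for CG32091 did 1 of these values come near the level of 1 at which the optimal entries have their median. CG12116 had 0.618, 0.673 and 0.407. CG5567 had 0.371, 0.249 and 0.493. ko had 0.445, 0.524 and 0.764. These last-named genes also stayed below 1 in each replicate. kar, a transporter gene known for an eye colour phenotype, had 0.576, 0.574 and 0.261. CG9922 had 0.489, 0.425 and 0.401 and, at 39 bp upstream, lay closest to a start site of the 10 highest. Prx4, a peroxiredoxin gene, had 0.464 and 0.512 in replicates 1 and 3 and no entry in replicate 2, whereas E(Pc), whose product is a chromatin regulator, had 0.40, 0.744 and 0.171. Over all 29 members with a VP box the median relative signal was 0.390, against 0.310 for members without one. Their median pooled signal was 46.7, against 47.8 without one, so the measures differ in direction. Of the 29, 55.2% were found in every replicate, the same share as over all members.

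The promoter motifs shown above were in similar shares of members and optimal promoter entries. The DREF site was at 45 member summits (1.62%, 95% interval 1.18 to 2.16%), 4.09 times as many as in the flanking windows, which held 11 (exact McNemar test, adjusted p = 3.50e-05). Against the optimal promoter summits, with 1.52% (1.18 to 1.91%), the odds ratio was 1.07 (Fisher's exact test, adjusted p = 0.874). The motif 1 core was at 28 member summits (1.01%, 0.669 to 1.45%) and in 5 flanking windows, a ratio of 5.60 (exact McNemar test, adjusted p = 2.87e-04). Its odds ratio against the optimal promoter summits, with 0.945% (0.684 to 1.27%), was also 1.07 (Fisher's exact test, adjusted p = 0.874). The ratio to flanks ran from 2.40 with start sites up to 2000 bp away to 15 against windows 1000 bp to the right for the DREF site. For the motif 1 core it ran from 3.92 with 100 bp searched to each side to 16 with 25 bp searched. Both passed the test under all 12 alternatives. No member held both sites. The members with these sites sat on the start site: 36 of 45 with a DREF site and 27 of 28 with a motif 1 core had their summit within 100 bp of one.

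These shares were close to those of start sites in general. Among the 864 members within 100 bp of a start site, 4.17% held a DREF site and 3.12% a motif 1 core. Of the windows centred on start sites of genes without an optimal promoter summit, 4.59% and 3.53% did. Among the 1920 members farther out, the shares were 0.469% and 0.0521%.

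GAGAG, the core of the site of the GAGA factor, was at 427 member summits (15.3%), against 11% of flanks (ratio 1.40, exact McNemar test, adjusted p = 1.11e-05) and 18.7% of optimal promoter summits (odds ratio 0.789, Fisher's exact test, adjusted p = 0.00310). Among the members at or above the median pooled signal, this odds ratio was 0.871 with an adjusted p of 0.235. The initiator (TCATTT or TCATTC or TCAGTT or TCAGTC), which marks where transcription begins, was at 27.2% of member summits, against 23.2% of flanks (ratio 1.17, exact McNemar test, adjusted p = 0.00247) and 25.5% of optimal promoter summits (odds ratio 1.09, Fisher's exact test, adjusted p = 0.239). The call against flanks was lost when only members found in the other 2 replicates were kept, with exact McNemar adjusted p = 0.290 without replicate 1, 0.0976 without replicate 2 and 0.126 without replicate 3. By the same exact test the call was also lost in the members at or above the median pooled signal (ratio 1.15, adjusted p = 0.103) and in those with no optimal summit within 2 kb (ratio 1.09, adjusted p = 0.205). The TATA box (TATAAA) was the motif that was higher in the members than in the optimal promoter entries, at 15%, against 12.2% (odds ratio 1.27, Fisher's exact test, adjusted p = 0.00310). It did not differ past the threshold from the flanks, with 13.9% (exact McNemar test, adjusted p = 0.390). By the same exact test it passed as more frequent than in flanks with 100 bp searched to each side (adjusted p = 0.0184), with start sites up to 2000 bp away (ratio 1.17, adjusted p = 0.0249) and against windows 1000 bp to the right (ratio 1.23, adjusted p = 0.00670). The start sites of genes without an optimal promoter summit held it in 18.1% of windows. Entries below the threshold and beyond 1 kb of any coding start site held the TATA box in 15.5%, so the members' share was not particular to promoters. With 25 bp searched, its odds ratio against the optimal promoter summits was 1.17 (Fisher's exact test, adjusted p = 0.359).

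In all, 4 of 13 motifs (30.8%) passed the test as higher at member summits than in flanks. Apart from GAGAG, these were the DREF site, the motif 1 core and the initiator, words of start sites. Members were chosen near start sites, so for these words the flank test does not separate members from start sites in general. Against the optimal promoter summits 4 of 13 (30.8%) were lower in the members and 1 of 13 (7.69%) was higher. Those that passed neither test were CACGTG, the E box of CLOCK and CYCLE, with 1.15% of member summits, TGACTCA, the AP-1 site, with 1.15%, CAGGTAG, the Zelda site, with 0.539%, CAGCTG with 5.64%, and the cyclic AMP response element.

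**Figure D1:**
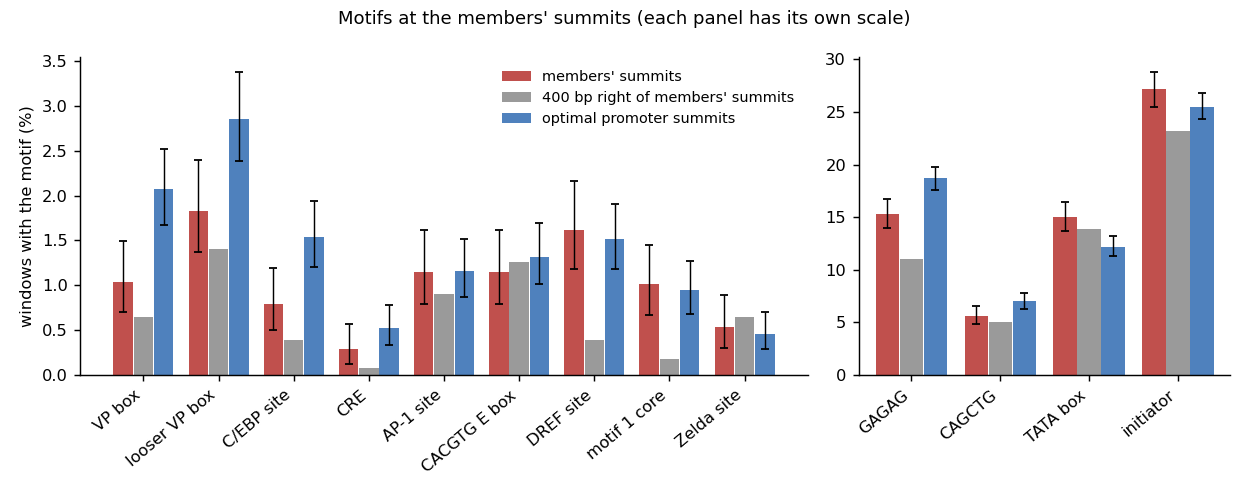
Share of windows (50 bp to each side of the centre) with each of 13 motifs at member summits, 400 bp to the right of them, and at optimal promoter summits. Error bars are exact binomial 95% intervals. The VP box stood at 1.04% of member summits and 2.07% of optimal promoter summits, whereas the DREF site stood at 1.62% and 1.52%.

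The summits of the members gathered at start sites, as those of the optimal promoter entries did. Distance to a start site was itself a criterion for both groups, so the positions are a description, with no test. Within 100 bp of a start site lay 864 member summits (31.0%, 95% interval 29.3 to 32.8%), against 1681 optimal promoter summits (36.9%, 35.5 to 38.3%), an odds ratio of 0.769. In the 1392 members at or above the median pooled signal the odds ratio was 0.966. Relative to the nearest start site, the median position was 55 bp upstream in the members (quartiles 269 bp upstream and 108 bp downstream), against 32 bp upstream in the optimal promoter entries (195 bp upstream and 110 bp downstream). Upstream summits made up 60.5% of the members and 57.6% of the optimal promoter entries.

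**Figure D2:**
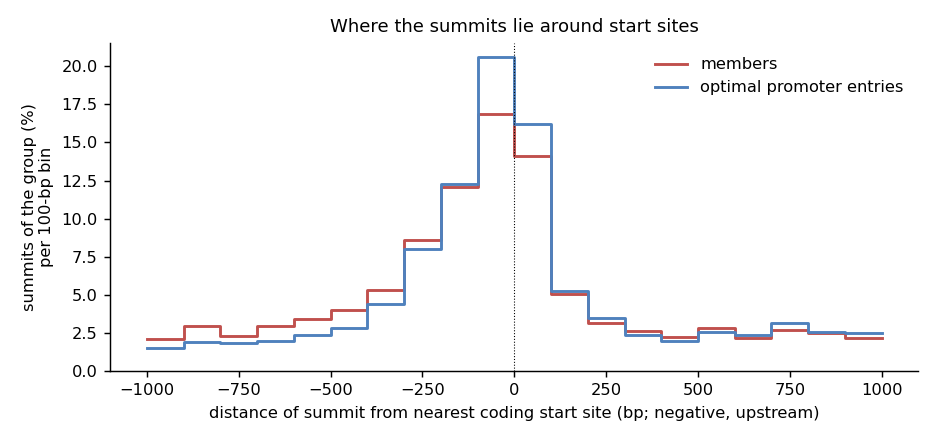
Distance of each summit from the nearest protein-coding start site, in bins of 100 bp, as a share of the members and of the optimal promoter entries. The bin just upstream of the start site held 16.9% of members and 20.6% of optimal promoter entries, and the members exceeded them from 200 bp upstream outward.

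More of the members' summits were outside genes or in coding exons. Outside genes were 40.2% of members, against 29.9% of optimal promoter summits. Introns held 28.6%, against 39.6%, and exons in untranslated regions 25.7%, against 28.4%. Coding exons held 5.42% of members and 2.07% of optimal promoter summits. The base composition around the summit was alike, with a median of 41.6% G and C in members and 42.6% in optimal promoter windows.

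Signal and replicate values, which entered the choice of members, are given as description without a test. Pooled signal ran from 22.6 to 108 in the members with a median of 47.8, against a median of 210 in the optimal promoter entries. The median −log10 q was 1.28 in the members and 4.25 in the optimal promoter entries. Almost all members (99.2%) had the width of 440 bp, a width that 43.9% of optimal promoter entries had. Other entries below the threshold were closer to the members. The 14798 of them beyond 1 kb of any coding start site had a median −log10 q of 1.09, and 98.0% had that width. For the 3154 within 1 kb of start sites only of genes with an optimal promoter summit, these values were 1.41 and 92.3%.

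An entry overlapping the member by at least 1 bp was found for 2344 members (84.2%) in replicate 1, 2082 (74.8%) in replicate 2 and 2264 (81.3%) in replicate 3. All 3 replicates held 1537 members (55.2%), against 96.7% of optimal promoter entries, and 40 members had an entry in none. Of the entries below the threshold beyond 1 kb of any coding start site, 53.6% were in all 3. Of those near start sites only of genes with an optimal promoter summit, 74.2% were. With a replicate summit required within 100 bp, the share of members in all 3 was 23.1%, and with an overlap of at least 50% it was 40.1%. The share was 87.2% among the members of pooled rank 9265 to 13411 and 21.8% among those of rank 25853 to 30000. Where a replicate held a member, its median relative signal was 0.298, 0.325 and 0.296 in replicates 1, 2 and 3, against 1.07, 1.09 and 1.05 for the optimal promoter entries. Among members in all 3 replicates, the SD over replicates had a median of 0.310 of the mean, against 0.237 in the optimal promoter entries. In the other 2 groups below the threshold this median was 0.320 beyond 1 kb and 0.410 near genes with an optimal promoter summit.

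**Figure D3:**
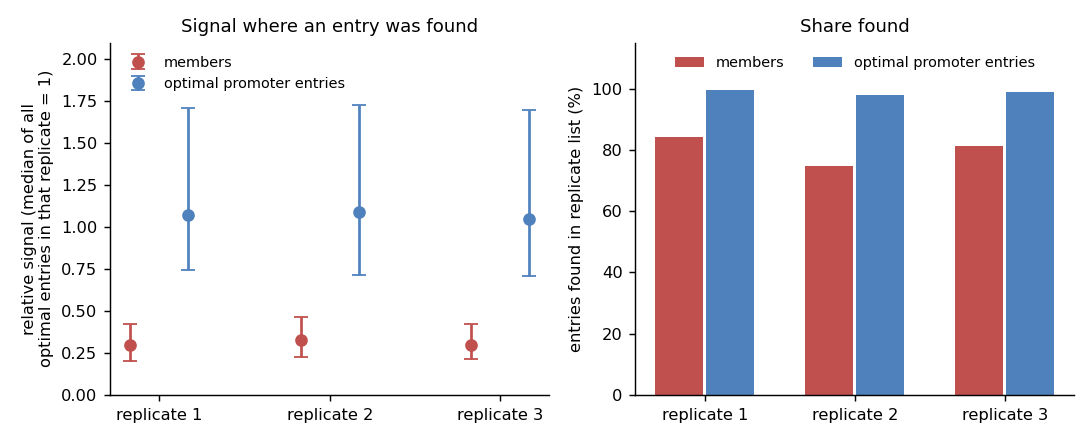
Left, relative signal in each replicate for members and optimal promoter entries found there, as median (point) and quartiles (bars). Right, share of each group found in the replicate's list. Members had medians of 0.298, 0.325 and 0.296 and were found least often in replicate 2 (74.8%).

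Few members ranked high in the single replicates. Of all 2784, 2275 (81.7%) were outside the 9264 highest entries of every replicate, 450 were inside in 1 replicate, 55 in 2 and 4 in all 3 (0.144%). The share inside in all 3 was 65.9% of optimal promoter entries. It was 0.581% of entries below the threshold beyond 1 kb of any coding start site. It was 3.39% of those near start sites only of genes with an optimal promoter summit. The 4 members were chosen after their values were seen. They were CG4502, Tsf3, a gene of the transferrin family, CCT5, a chaperonin subunit gene, and the nuclear receptor gene Eip78C. CG4502 had relative signals of 0.668, 0.584 and 0.751 and Tsf3 had 0.597, 0.753 and 0.643, both steady across replicates. CCT5 had 1.52, 0.817 and 0.913, but an optimal summit lay 231 bp from its summit. Of the 10 members with the highest mean relative signal, 7 lay within 231 bp of an optimal summit, so that the replicate entry matched to them can be that of the neighbour. Over all members the nearest optimal summit was at a median of 4756 bp (quartiles 2274 and 13024 bp), and 147 members (5.28%) had one within 1 kb.

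The entries described next were chosen by their pooled rank. Like pooled signal was therefore given by the choice, at 108 on either side of the threshold. Next below it were bab2 with relative signals of 0.625, 0.279 and 0.582, CG31809 with 0.257, 0.454 and 0.680, and CG13004 with 0.352, 0.228 and 0.889. LanB1 followed with 0.620, 1.03 and 0.382, and pio with 0.496, 0.646 and 0.544. Next above the threshold, the optimal promoter entry at KrT95D had 0.564, 0.989 and 0.424, that at Tlk 0.585, 0.675 and 0.577, and that at mtd 0.435, 0.740 and 0.708. The entry at CG11537 had 0.590, 0.393 and 0.481, and that at Iswi 0.728 and 0.704 in replicates 1 and 2 and no entry in replicate 3. The members' means, 0.463 to 0.676, overlapped those just above, 0.488 to 0.716, which describes entries chosen for near ranks.

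The 15 members of highest signal belonged to genes of varied roles. Transcription and chromatin were represented by bab2 (chr3L:1177060-1177499), a BTB-domain factor of limb patterning, with its summit 4 bp upstream of the start site. esg (chr2L:15333646-15334085), a Snail-family factor, had its summit at the start site and relative signals of 0.287, 0.247 and 0.768. kis (chr2L:221844-222283), a chromatin remodeller, had 0.838, 0.306 and 0.527 at 102 bp upstream. At both, 1 replicate stood well above the others. Extracellular matrix genes were LanB1 (chr2L:7810311-7810750), a laminin chain, at 907 bp upstream and 821 bp from an optimal summit near Cdc14, and pio (chr2R:24581037-24581476), a protein of the apical matrix, at 12 bp downstream. ref(2)P (chr2L:19542993-19543432), the autophagy receptor related to p62, had 0.577, 0.666 and 0.423 at 745 bp downstream in an intron. Metabolic and glycosylation genes were Bmcp, a mitochondrial carrier, with 0.434, 0.472 and 0.502, muc, a pyruvate dehydrogenase component, with 0.507, 0.303 and 0.605, Pgant2 with 0.578, 0.315 and 0.526, and Alp5 with 0.525, 0.875 and 0.341. Of these, Bmcp had the smallest spread, an SD of 0.0338 around a mean of 0.469. O-fut1, which adds fucose to Notch, shared its entry with CysRS-m and had 0.308 and 0.805 in replicates 1 and 3 and none in replicate 2. The others were CG31495 with a mean of 0.563, CG12236 with 0.464, CG13004 with 0.489 and CG31809 with 0.463. At the other end, the 3 lowest members, CG43083, NitFhit and CG1537, had a pooled signal of 22.6 and were found in 1, 2 and 2 replicates.

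Members were found more often at genes with several start sites and long bodies. Of 13945 protein-coding genes, 3830 (27.5%) had an optimal promoter summit, and of the other 10115, 2045 (20.2%) had a member. Since the rule itself selects these genes, the shares below are descriptions, read beside that 20.2%. Members were present at 17.4% of such genes with 1 start site, 28.4% with 2, 41.6% with 3 and 63.7% with 4 or more. The rule accepts a summit within 1 kb of any start site, so each further start site can add to the sequence searched. By length, with the number of start sites not held fixed, the share was 15.9% up to 2 kb and 47.5% over 20 kb. How much of these shares comes from the sequence searched was not tested. The median length was 2483 bp for genes with a member, against 1767 bp for genes with neither and 3598 bp for genes with an optimal promoter summit. An optimal summit elsewhere in the gene body was present in 274 (13.4%) of the genes with a member and in 133 (1.65%) of those with neither.

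Ecdysone response genes had a member at 7 of the 12 that lacked an optimal promoter summit (58.3%). Their mean number of start sites was 1.83 and their median length 8323 bp, against 1.25 and 1875 bp over all such genes, and the part of length in this share was not tested. ImpL2, a secreted protein that binds insulin-like peptides, had relative signals of 0.614, 0.484 and 0.469 at 173 bp upstream (chr3L:4225903-4226342). Eip78C, a nuclear receptor induced early by ecdysone, had 0.680, 1.39 and 0.654 at 391 bp upstream in an intron (chr3L:21239736-21240175). Replicate 2 was highest there, and all 3 values lay above the members' median. Smr, a corepressor of the ecdysone receptor, had 0.531, 0.794 and 0.443 at 9 bp upstream. The nuclear receptor Hr39 had 0.532, 0.610 and 0.466 at 891 bp downstream. mld, a zinc finger factor needed for ecdysone production, had 0.553, 0.196 and 0.433. The ranges of these 3 genes overlapped. ImpE1 had 0.369 and 0.401 in replicates 1 and 3 and none in replicate 2. Dronc, the initiator caspase, was lowest with 0.157, 0.224 and 0.198. Optimal summits lay elsewhere in the bodies of all 7, from 1 in Dronc and ImpE1 to 13 in Smr. No member was found at CCAP, ETH and Eh, genes of peptide hormones of ecdysis, at Cyp18a1, which inactivates ecdysone, or at ImpL1. Of 12 genes of ecdysteroid synthesis, the dehydrogenase gene sro alone had one, with 0.448, 0.670 and 0.371.

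Clock genes without an optimal promoter summit had a member in 3 of 10. The 10 had a mean of 1.90 start sites and a median length of 6757 bp. At dco, the kinase Doubletime that phosphorylates Period, the highest of 3 members had 0.288, 0.905 and 0.482 at 131 bp downstream (chr3R:31060422-31060861), so replicate 2 was far above the others. nmo, another kinase, had 0.780 and 0.273 in replicates 1 and 3, in an entry shared with Pop4. Pdfr, the receptor of the clock neuropeptide, had 0.151 and 0.205 in replicates 1 and 3, near the low end of all members. Neither nmo nor Pdfr had an entry in replicate 2. The core genes per, tim and cyc had no member, nor had CkIIalpha, Pdf, jet and to. No bZIP factor gene among the 7 without an optimal promoter summit had a member. Beside the 20.2% of all such genes, 7 genes are too few to set this list apart.

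**Figure D4:**
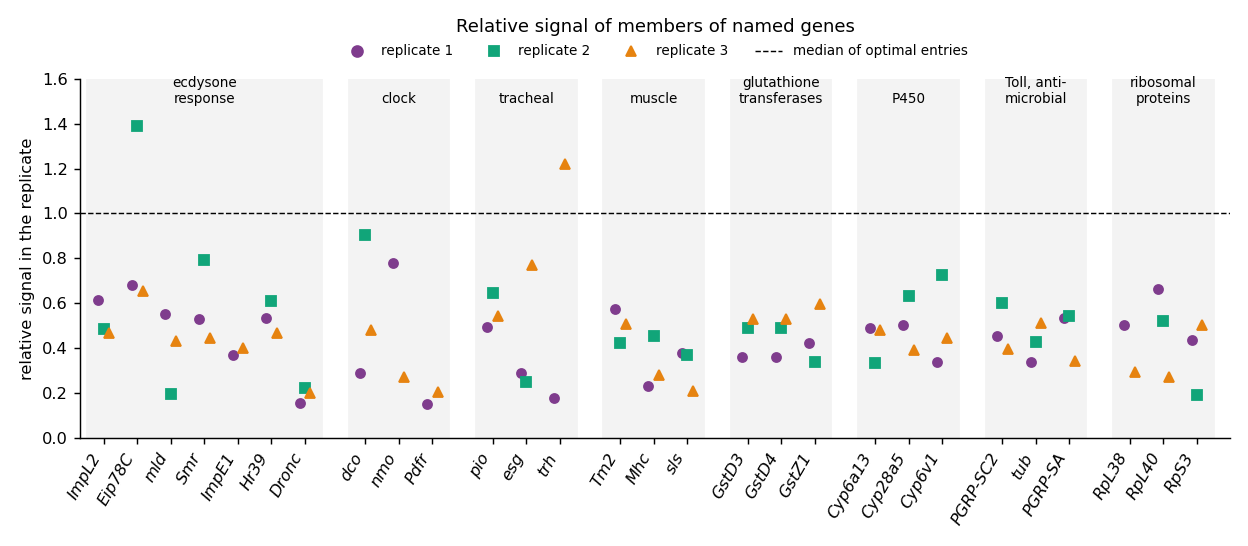
Relative signal in each replicate (symbols) of the highest member of all ecdysone response and clock genes with a member and of the 3 highest genes of 6 further lists. The dashed line marks 1, the median of optimal entries, and 2 values lie above it, replicate 2 at Eip78C and replicate 3 at trh. GstD3 and GstD4 share 1 entry.

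Genes of detoxification often had a member. Glutathione transferases, enzymes that conjugate toxins, had a member at 12 of 17 genes (70.6%), although these genes were short, with a median of 1030 bp and 1.24 start sites. GstD3 and GstD4 share an entry with 0.360, 0.490 and 0.531 (chr3R:12373842-12374281). GstZ1 had 0.423, 0.336 and 0.598 with its summit 7 bp upstream, at the DREF site shown above. The 12 genes hold 14 entries, and several sit next to each other, so they are not independent. Cytochrome P450 genes had a member at 25 of 59 (42.4%). Cyp6a13 had 0.491, 0.335 and 0.481, Cyp28a5 0.502, 0.630 and 0.390, and Cyp6v1 0.336, 0.725 and 0.443.

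Immune and blood cell genes followed. Toll pathway and antimicrobial genes had a member at 12 of 24. These genes were short, with a median of 782 bp and a mean of 1.21 start sites. PGRP-SC2, a secreted amidase that cleaves peptidoglycan, had 0.454, 0.600 and 0.394 at 187 bp upstream. tub, the adaptor Tube, had 0.336, 0.426 and 0.510, and PGRP-SA, a peptidoglycan sensor, 0.532, 0.541 and 0.341. The replicate ranges of these genes overlapped. Blood cell markers had a member at 8 of 16, led by the phagocytosis receptor NimC1, which shares its entry with Cyp28a5, the receptor crq with a mean of 0.397 ± 0.151 and the collagen gene Col4a1 with 0.325 ± 0.0619 (SD, n = 3 replicates each).

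Some lists of tissue markers also had high shares. Muscle genes had a member at 11 of 19 (57.9%). Their mean number of start sites was 2.21 and their median length 4883 bp, against 1.25 and 1875 bp over all genes without an optimal promoter summit. The part of start sites and length in the shares of this paragraph was not tested. Tropomyosin gene Tm2 had 0.572, 0.421 and 0.509 in an intron upstream of the start site (chr3R:15311692-15312131). The myosin heavy chain gene Mhc had 0.231, 0.454 and 0.280, and the titin-like sls had 0.378, 0.369 and 0.210. Tm2 was above sls in each replicate and above Mhc in replicates 1 and 3. The median over the list's best entries was 0.243, below the 0.329 of all genes with a member. Tracheal genes, with a mean of 1.82 start sites and a median length of 11319 bp, had a member at 6 of 11 (54.5%). They were led by pio and esg, described above, and trh. At trh, the bHLH-PAS factor of tracheal fate, replicate 3 gave 1.22 and replicate 1 only 0.178, with no entry in replicate 2. Neuron markers had a member at 6 of 17 (35.3%), led by Syt1 with a mean of 0.342 ± 0.193, futsch with 0.294 ± 0.00834 and nrv3 with 0.316 ± 0.0379 (SD, n = 3 each), and they too had long bodies, with a median of 32941 bp. Fat body markers had a member at 2 of 7, the ecdysone-induced storage protein receptor Fbp1 with 0.414, 0.747 and 0.480 and apolpp with 0.227, 0.341 and 0.197.

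Lists of signalling and patterning genes are also read beside the 20.2% of all genes without an optimal promoter summit. The list labelled Dpp signalling, which is not limited to the Dpp branch, had a member at 5 of 11 genes (45.5%). These 11 had a mean of 1.45 start sites and a median length of 7466 bp, against 1.25 and 1875 bp over all such genes. The list was led by babo with a mean of 0.506 ± 0.205, salm with 0.409 ± 0.133 and sog with 0.364 ± 0.0926 (SD, n = 3). The babo entry lay 495 bp from an optimal summit. Notch pathway genes had 4 of 10, with mib1 at 0.484 ± 0.230 and N at 0.256 ± 0.101 (n = 3), and Ser at 0.435 ± 0.144 (n = 2). None of 11 Hox genes had an optimal promoter summit, and their mean number of start sites was 2.09 and their median length 22836 bp. Of them, abd-A had 0.443, 0.565 and 0.371 at 102 bp downstream, Abd-B 0.278 and 0.241 in replicates 1 and 3, and Antp 0.193, 0.161 and 0.186. abd-A was above both in each replicate in which they were found. Cell death genes had 5 of 8 (62.5%), with a mean of 1.12 start sites and a median length of 2398 bp. They were led by the caspase gene Decay with 0.142, 0.275 and 0.658 and the kinase gene hep with 0.191, 0.285 and 0.471. The part of start sites and length in the shares of these lists was not tested. Insulin and growth genes had 2 of 15 (13.3%), raptor with 0.510, 0.564 and 0.439 and Ilp7 with 0.378 in replicate 3 alone.

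In lists of housekeeping genes the shares ran from 4.17% to 33.3%, on both sides of the 20.2% of all genes without an optimal promoter summit. Cytosolic ribosomal protein genes had a member at 7 of 31 (22.6%), led by RpL38 with 0.502 and 0.292 in replicates 1 and 3, RpL40 with 0.665, 0.522 and 0.271 and RpS3 with 0.435, 0.190 and 0.502. Mitochondrial ribosomal proteins had 7 of 37, with mRpS7 at 0.454 ± 0.231 and mRpS25 at 0.274 ± 0.154 (n = 3) and mRpL3 at 0.385 ± 0.214 (n = 2). Aminoacyl-tRNA synthetases had 7 of 28, with ArgRS at 0.472 ± 0.284 (n = 3) and AspRS-m at 0.545 ± 0.0170 (n = 2). The proteasome had 6 of 41, with Rpn11 at 0.436 ± 0.242, Rpt6 at 0.343 ± 0.158 and Prosalpha4 at 0.463 ± 0.0900 (n = 3). Translation factors had 5 of 36, among them eIF4G2 at 0.192 ± 0.0799, eIF5 at 0.476 ± 0.00393 and eIF1 at 0.505 ± 0.0245 (n = 2). Oxidative phosphorylation had 4 of 38, with UQCR-11 at 0.447 ± 0.0701 and ND-MLRQ at 0.290 ± 0.0727 (n = 3). The vacuolar ATPase had 1 of 24, Vha14-2, with 0.178 in replicate 1 alone. Genes of the Rab list had 6 of 22, with Rab19 at 0.556 ± 0.305, Rab21 at 0.512 ± 0.104 and Rab40 at 0.479 ± 0.209 (n = 3), and 1 of the 6, Rab3-GEF, encodes a Rab regulator. Autophagy genes had 3 of 9, Atg3, Atg5 and Atg12, with means of 0.395, 0.219 and 0.287. Heat shock genes had 2 of 15, Hsp67Bc with 0.544, 0.391 and 0.559 and Hsp67Ba with 0.290, 0.540 and 0.309, and the Hsp67Bc entry lay 905 bp from an optimal summit.

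In the lists of chemosensory, male reproductive, odorant-binding, cuticle, glue and digestive genes, shares ran from 6.56% to 25%. Expression of these genes in the samples was not measured here. Chemosensory receptor genes had a member at 16 of 175 (9.14%), led by Gr63a with 0.733, 0.268 and 0.383, Gr97a with 0.224, 0.867 and 0.565 and Or67a with 0.306, 0.716 and 0.296. Gr63a shares its entry with Lamtor4 and Gr97a with CG5521. Male reproductive genes had 4 of 61 (6.56%), the highest being Acp54A1 with 0.605, 0.539 and 0.304 in an entry shared with CG11400. Odorant-binding proteins had 6 of 49, with Obp83cd at 0.363 ± 0.0705 and Obp83ef at 0.368 ± 0.248 (n = 3). Cuticle protein genes of the Cpr family had 10 of 90 (11.1%), with Cpr49Ac at 0.392, 0.465 and 0.285 and Cpr67Fb at 0.266, 0.266 and 0.426. Salivary glue and late puff genes had 3 of 19, Sgs3 with 0.207, 0.399 and 0.505 and the neighbours Sgs7 and Sgs8 in 1 shared entry found in replicate 2 alone, at 0.191. Digestive serine proteases had 4 of 16, led by Jon65Ai with 0.145, 0.254 and 0.50.

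**Figure D5:**
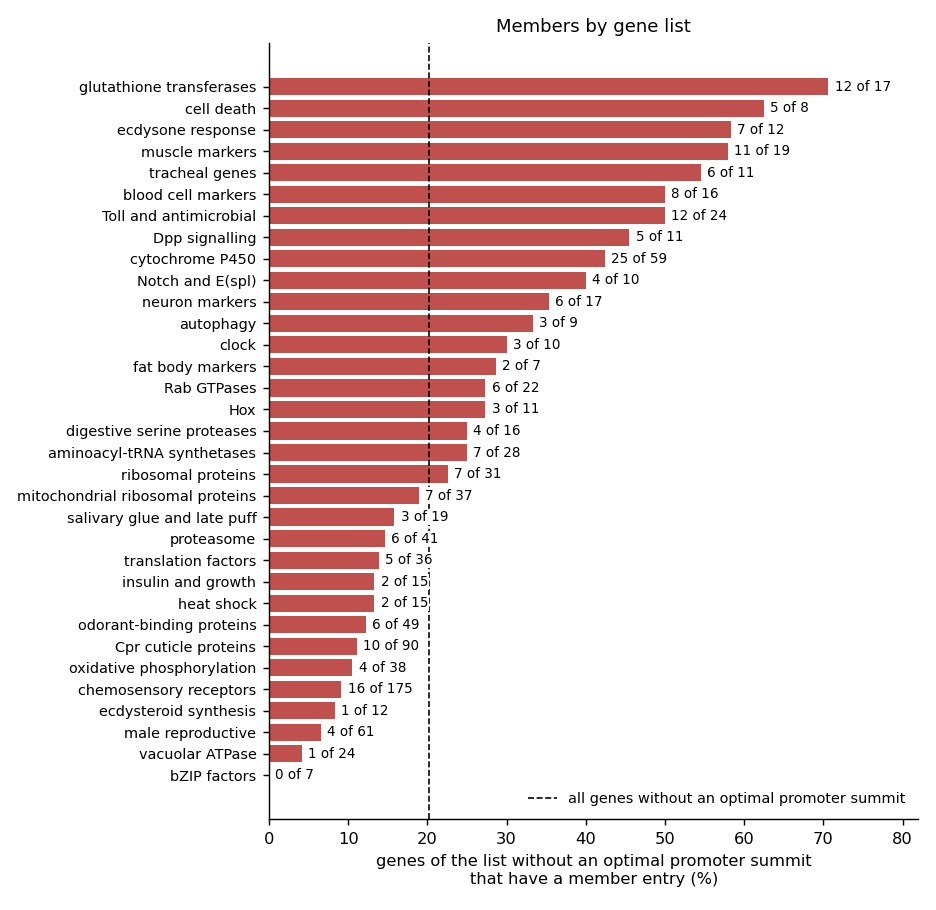
Share of the genes of each list without an optimal promoter summit that have a member, with the counts beside each bar. The dashed line marks the 20.2% of all such genes. Glutathione transferases are highest at 70.6% and bZIP factors lowest at 0 of 7.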

How the data were processed

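The authors' narrowPeak lists on assembly dm6 were used, 1 per replicate, 1 pooled and 1 optimal. Per the depositors' note files, the replicate and pooled lists are peaks with background that served as IDR input, and the optimal list was made from them; the sources used here name no aligner, peak caller or threshold value. The deposited signal value is not scaled between libraries, and the deposited −log10 q value was used for description only. Members followed from matching positions, and start sites from Ensembl release 115. Motifs were read from the RefSeq assembly on both strands. The motif tests were checked on simulated data for the VP box only, planted at random genomic positions and not at promoters. The planted share was larger than the excess over flanks seen in the members, so the check does not show the power at that excess. Relative signal used the overlapping replicate entry (at least 1 bp) with the nearest summit. Genes named are the 15 highest members, the 5 on each side of the threshold, the 10 highest with a VP box, the 3 lowest, all clock and ecdysone genes without an optimal promoter summit and the 3 highest of each other list; listed symbols not in the annotation were left out. The 33 gene lists, motifs and members were chosen with earlier results of these data known. The p-values measure peaks within 1 group, not differences between animals. Python 3.11.15 with SciPy 1.17.1, pandas 2.3.3, NumPy 2.4.6 and matplotlib 3.10.9 was used. No list of a control library was used here.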

Additional observations from a re-analysis of the deposited data

How the results depend on the processing

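No paired analysis was possible because there is 1 group. Over 226 recomputed values none changed direction past a threshold. With 100 bp searched to each side, 7 motifs in place of 4 were higher at member summits than in flanks. Below, "without a replicate" means that only members with an entry in both other replicate lists were kept. The pooled list, the threshold and the optimal promoter entries still rested on all 3 replicates. Without a replicate in this sense, 3 motifs were higher at member summits than in flanks in each case. The VP box odds ratio against optimal promoter summits ranged from 0.448 to 0.518 without a replicate, and with 25 bp searched it was 0.611 (Fisher's exact test, adjusted p = 0.327). Motifs lower in members numbered 2 with 25 bp searched, with the members at or above the median pooled signal or with the highest member of each gene, and 2 to 5 without a replicate, 2 being without replicate 3. Motifs higher in members numbered 0 with 25 bp searched, at an adjusted or an unadjusted Fisher p under 0.05. The closeness odds ratio was 0.966 in the members at or above the median signal and 0.739 to 0.785 without a replicate. Members in all 3 replicates made up 40.1% with an overlap of at least 50% and 23.1% with summits within 100 bp. Genes with a member made up 18.3% at 500 bp, 22.9% at 2000 bp and 18.4% by the nearest start site only. The causes were not tested. The unknown depth and the 3 replicates limit what a single member's value can show, and intervals cover counting error only.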

Other observations

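Of the genes without an optimal promoter summit, 17 of 66 on chromosome 4 (25.8%) and 389 of 1621 on the X chromosome (24.0%) had a member, against 18.2% on arm 3R, 19.1% on arm 2L, 19.8% on arm 2R and 20.9% on arm 3L. Some members lay in long stretches without any optimal summit. The entry at RpL38, a ribosomal protein gene, was 1092481 bp from the nearest one, that at UQCR-11, a subunit of respiratory complex III, 583314 bp, and that at ND-MLRQ 244093 bp. UQCR-11 had relative signals of 0.405, 0.409 and 0.528 in replicates 1, 2 and 3, all above the members' medians in those replicates.

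Members also lay near starts of other RNA genes, 15 (0.539%) within 1 kb of a tRNA start and 7 (0.251%) within 1 kb of a start of a small nuclear or nucleolar RNA. Among optimal promoter entries these shares were 0.483% and 0.769%. Members with a motif 1 core were found in every replicate in 75% of cases and those with a DREF site in 44.4%, against 55.2% of all members, and the difference was not tested. These values are descriptions of 1 group.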
